A study of Mus musculus with 4 samples.

Results

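Transcripts of the T cell receptor loci were compared between CD8+ T cells of the mouse grown in vitro and CD8+ thymocytes. The probes are all those on the array whose gene name begins with Tcra, Tcrb, Tcrg or Tcrd, 16 of 41174 probes that are not controls. They carry 6 of the 27962 gene names on the array: Tcra (3 probes), Tcrb-J (2 probes), Tcrb-V13 (6 probes), Tcrg (3 probes), Tcrg-C (1 probe) and Tcrg-V2 (1 probe). Probes named Tcrd numbered 0. The rule reads names alone, but the family was selected on the log2 ratios of this same contrast, which were known when it was proposed. The ratios below are therefore a description, with no p-value for these 16 probes.

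The in vitro-derived cells came from Lin-Sca1+CD117+ progenitors of the bone marrow of C57Bl/6 mice aged 6 to 8 weeks. Culture lasted 35 days on OP9-DL1 stroma, which presents a Delta-like ligand of Notch, with the cytokines Flt3, as the labels name it, at 5 ng/ml and IL7 at 1 ng/ml. Neither kind was treated otherwise. The thymic cells came from C57Bl/6 mice aged 4 to 5 weeks, so donor age and origin cannot be told apart. Both kinds were sorted as CD8+ cells with a high surface level of the receptor's beta chain. Each kind gave 2 RNA preps, and 4 Agilent arrays set each thymic prep, labelled with Cy3, against each in vitro prep, labelled with Cy5. Dyes were not swapped, so dye and cell origin cannot be told apart. The series' design text calls the preps biological replicates and the labels name no separate animals, so errors measure the spread between these preps. With 2 preps against 2, an exact permutation test of 1 value cannot give a p under 0.333.

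A T cell receptor is either an alpha and a beta chain or a gamma and a delta chain. Each chain is encoded by variable, joining and constant segments, of which variable and joining segments are cut and joined during development in the thymus. The delta segments lie inside the alpha locus, between its variable and joining segments, so that joining of alpha segments removes them. CD8+ cells of the conventional lineage carry alpha and beta chains, and transcripts of the gamma locus are normally low in them.

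The 3 loci were ordered the same way on every array: gamma far higher in in vitro-derived cells, beta somewhat higher and alpha lower. The median log2 ratio of in vitro-derived over thymic cells was 4.47 over the 5 gamma probes, with a range from 3.51 to 4.82. It was 0.73 over the 7 beta probes with a value on all 4 arrays (range 0.25 to 1.23) and -0.96 over the 3 alpha probes (range -1.56 to -0.79). The median over all 27236 tested probes was 0.026. By limma with a Benjamini-Hochberg adjusted p under 0.05, 15 of the 15 tested members were called, where 52.2% of all tested probes were. Of these, 12 were higher, where 26.6% of all tested probes were, and 3 were lower, where 25.6% were. These counts come from the contrast that brought the family forward, and nothing is read from them. No gamma probe overlapped a beta probe and no beta probe overlapped an alpha probe in 19 of 19 other processing settings.

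**Figure D1:**
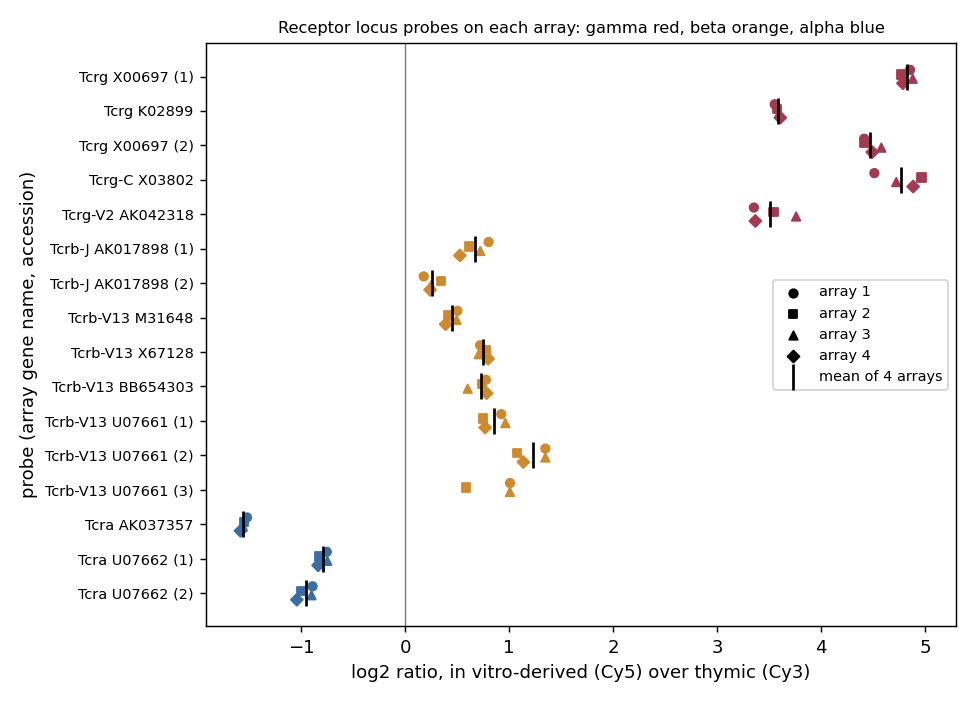
Log2 ratio of in vitro-derived (Cy5) over thymic (Cy3) signal on each of the 4 arrays (symbols) with the mean of the arrays (bar), for the 16 probes named by gene and accession, with numbers in brackets for probes of 1 accession in order of position. Gamma probes lie between 3.35 and 4.96, beta probes between 0.18 and 1.35 and alpha probes between -1.58 and -0.75.

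The gamma locus rearranges at the early double-negative stage, and its chain pairs with delta. The Tcrg probe for the gamma chain mRNA X00697 at chromosome 13, 18672247 to 18672306, had log2 ratios of 4.85, 4.77, 4.88 and 4.79 on arrays 1 to 4. Its mean was 4.82 ± 0.064 (SE, n = 2 preps of each kind), or 28.3-fold higher in in vitro-derived cells, and it ranked at number 11 from the top among all tested probes. All 4 arrays lay between 4.77 and 4.88, so both preps of each kind gave nearly the same value. The second X00697 probe, at 18703986 to 18704045, lay at 4.41, 4.42, 4.58 and 4.49, a mean of 4.47 ± 0.070 and 22.2-fold. This pair of probes lies 31739 bases apart in the coordinates of the files, and the 4 array values of the first were all above those of the second. The sources used here do not give the build of these coordinates.

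Tcrg-C, named for the constant part, was read by 1 probe for X03802 whose listed position runs from 18712108 to 18716815. Its log2 ratios were 4.51, 4.96, 4.72 and 4.88, with a mean of 4.77 ± 0.11 and a fold of 27.3. Arrays 2 and 4, which carry in vitro prep 2, were the higher pair. The third Tcrg probe reads K02899, described in the files as an aberrantly rearranged gamma chain mRNA of a cytotoxic T cell line. It lay at 3.55, 3.58, 3.60 and 3.61, a mean of 3.58 ± 0.059 and 12.0-fold higher, the narrowest spread over arrays of the 5 gamma probes.

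Tcrg-V2, named for a variable segment, was read by 1 probe for AK042318, a neonatal thymus cDNA whose product the files call unclassifiable. The log2 ratios were 3.35, 3.54, 3.76 and 3.37, with a mean of 3.51 ± 0.074 and a fold of 11.4. It was well above background on 4 arrays in Cy5 but on 1 of 4 in Cy3, so its thymic level is near the limit of detection. With Agilent's processed signals in place of the background model used here, its log2 difference was 6.25. In the coordinates of the files it lies 3687 bases from the K02899 probe and 27888 bases from the second X00697 probe. Of the 5 gamma probes, 4 are listed with falling coordinates and Tcrg-C with rising ones. In order of difference, the first X00697 probe (4.82) and Tcrg-C (4.77) overlapped over the arrays, as did Tcrg-C and the second X00697 probe (4.47), and K02899 (3.58) and Tcrg-V2 (3.51). With processed signals this order did not hold: Tcrg-V2 then lay highest, Tcrg-C at 5.38 and the second X00697 probe at 5.11.

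Channel levels show where these ratios come from. On the log2 scale of normalised intensity, the first X00697 probe stood at 10.98 and 10.97 in the thymic preps and at 15.77 and 15.82 in the in vitro preps. K02899 stood at 10.47 and 10.43 against 13.89 and 14.18, and the second X00697 probe at 8.01 and 7.88 against 12.28 and 12.56. Tcrg-C stood at 7.97 and 7.93 against 12.50 and 12.94, and Tcrg-V2 at 6.72 and 6.57 against 10.19 and 10.11. Apart from Tcrg-V2, each gamma probe was well above background in thymic cells on all 4 arrays, so gamma transcripts were measured in both kinds of cells. In bulk RNA, fewer cells with a transcript and less of it per cell cannot be told apart. Levels of different probes are not comparable, since probes differ in how they bind.

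**Figure D2:**
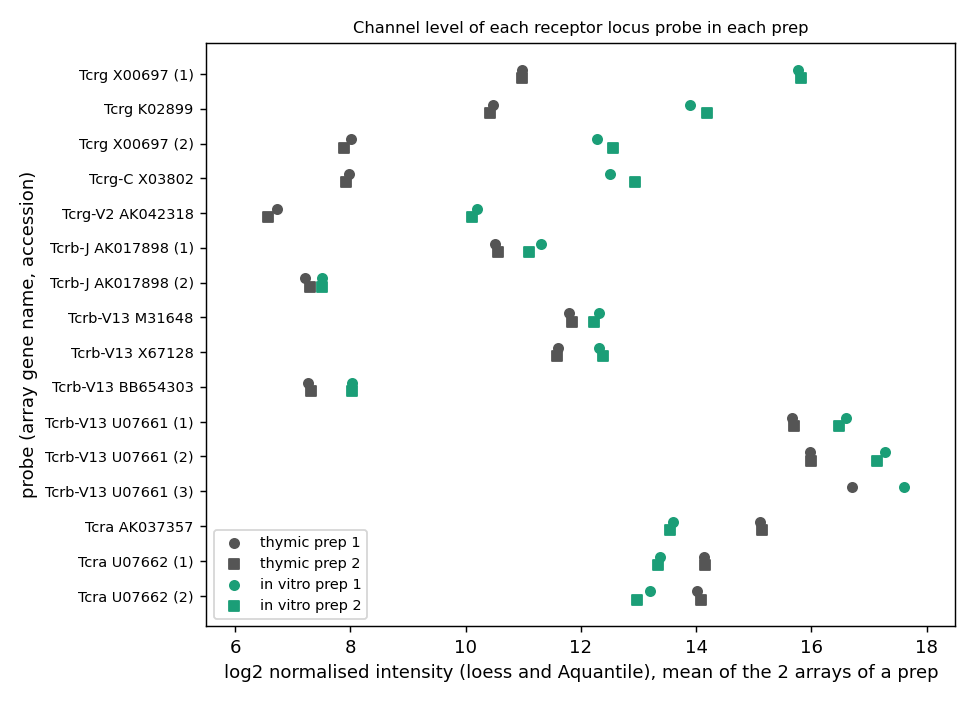
Log2 normalised intensity (loess, then Aquantile) of each probe in the 2 thymic preps (grey) and the 2 in vitro preps (green), each the mean of the 2 arrays that carry the prep. For all 5 gamma probes the in vitro preps lie more than 3 units to the right, for alpha they lie to the left, and Tcrb-V13 U07661 (3) has prep 1 values only because it lacks a value on array 4.

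The beta chain is the first of the alpha-beta pair to be made, and a high surface level of it was used to sort both kinds of cells. The files name 6 probes Tcrb-V13, which the reference table lists as an older name of Trbv14, although 5 of their 6 descriptions speak of beta chain mRNAs or rearranged chains and not of 1 variable segment. The highest was a U07661 probe, a complete beta chain coding sequence, at chromosome 6, 41478129 to 41478693. Its log2 ratios were 1.35, 1.08, 1.35 and 1.14, a mean of 1.23 ± 0.095 and 2.34-fold. A second U07661 probe, at 41477802 to 41477861, lay at 0.92, 0.75, 0.96 and 0.77, a mean of 0.85 ± 0.082 and 1.80-fold. Both were higher on arrays 1 and 3, which carry in vitro prep 1, than on arrays 2 and 4.

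The third U07661 probe, at 41479327 to 41479386, had no value on array 4, where the scanner software marked its Cy5 background as non-uniform, and was not tested. It lay at 1.01, 0.59 and 1.01 on the other 3 arrays. With marked spots kept, a setting chosen after the data had been seen, it lay at 0.877 ± 0.175. These 3 probes lie within 1585 bases of each other and 318929 bases from the nearest other probe of the family.

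The remaining Tcrb-V13 probes were higher by less. X67128, described as a rearranged chain of variable, diversity, joining and constant parts, lay at 0.72, 0.77, 0.71 and 0.80 (mean 0.75 ± 0.061, 1.68-fold). BB654303, a neonatal thymus cDNA, lay at 0.78, 0.74, 0.60 and 0.78 (mean 0.73 ± 0.065). M31648, a rearranged chain of variable, joining and constant parts, lay at 0.50, 0.42, 0.49 and 0.39 (mean 0.45 ± 0.065, 1.37-fold). The array values of these 3 probes were all above 0, and X67128 and BB654303 overlapped each other.

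Tcrb-J, named for the joining part, had 2 probes of 1 thymus cDNA, AK017898, whose starts lie 178 bases apart. The probe at 40993724 to 40993783 had log2 ratios of 0.80, 0.62, 0.72 and 0.53, a mean of 0.67 ± 0.087 and 1.59-fold. The other, at 40993902 to 40993961, lay at 0.18, 0.35, 0.25 and 0.24, a mean of 0.25 ± 0.062 and 1.19-fold. The 4 array values of the first were all above the 4 of the second. The second probe was not called in 7 of 18 other settings, with values of 0.21 to 0.26 there, among them those without thymic prep 1 (0.24), thymic prep 2 (0.26), in vitro prep 2 (0.21), array 2 (0.21) or array 3 (0.21). By part as named, the 2 joining probes (median 0.46) and the 5 tested variable probes (median 0.75) of the beta locus overlapped. The names need not give the part that a probe reads. The Tcrb-J probes lie on either side of ENSMUST00000049335 (40993804 to 40993863), described as a variable region. The U07661 probes lie past the start of LOC665500 (41469654), described as similar to a beta constant region. Nothing is therefore read from this comparison of parts.

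Levels of beta probes were above background in both kinds on all 4 arrays. The U07661 probe with the largest difference stood at 15.97 and 16 in thymic preps and at 17.27 and 17.14 in in vitro preps. X67128 stood at 11.61 and 11.59 against 12.31 and 12.38, and the first Tcrb-J probe at 10.50 and 10.56 against 11.30 and 11.10. The second Tcrb-J probe, at 7.21 and 7.30 against 7.51 and 7.5, was the narrowest step of the 15 tested probes.

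The alpha chain is made last, at the double-positive stage, and completes the receptor that selection acts on. All 3 Tcra probes were lower in in vitro-derived cells. AK037357 is a neonatal thymus cDNA at chromosome 14, 49070538 to 49070597, whose product the files call unclassifiable. It lay at -1.52, -1.55, -1.56 and -1.58, a mean of -1.56 ± 0.059, or 2.94-fold lower. This probe is printed 10 times on each array, and the 10 scanner log2 ratios spanned -1.59 to -1.51 on array 1 and -1.65 to -1.55 on array 4, with SDs of 0.025 to 0.030 on the 4 arrays. Spot to spot error was therefore far smaller than the difference.

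The other 2 Tcra probes read U07662, described as a complete alpha chain coding sequence, and lie 21556 and more bases from AK037357. The one at 49094000 to 49094059 lay at -0.89, -0.996, -0.90 and -1.04 (mean -0.96 ± 0.069, 1.94-fold lower). The one listed at 49092094 to 49092988 lay at -0.75, -0.82, -0.75 and -0.84 (mean -0.79 ± 0.062, 1.73-fold lower). Both were lowest on arrays 2 and 4, which carry in vitro prep 2. AK037357 stood at a log2 level of 15.11 and 15.15 in thymic preps and 13.60 and 13.55 in in vitro preps, and the U07662 probes at 14.01 to 14.15 against 12.97 to 13.37, with no overlap between kinds.

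The direction of the alpha probes depends in part on the scaling. With each array centred on its median in place of the intensity-dependent fit, the median of all tested probes moved from 0.026 to 0.37, and the share of calls that were higher moved from 51.0% to 83.6%. AK037357 then lay at -0.56, the U07662 probes at -0.071 and 0.12, the beta probes between 0.45 and 2.53 and the gamma probes between 3.92 and 5.69. The gamma and beta probes kept their sign in every setting run, and so did AK037357.

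**Figure D3:**
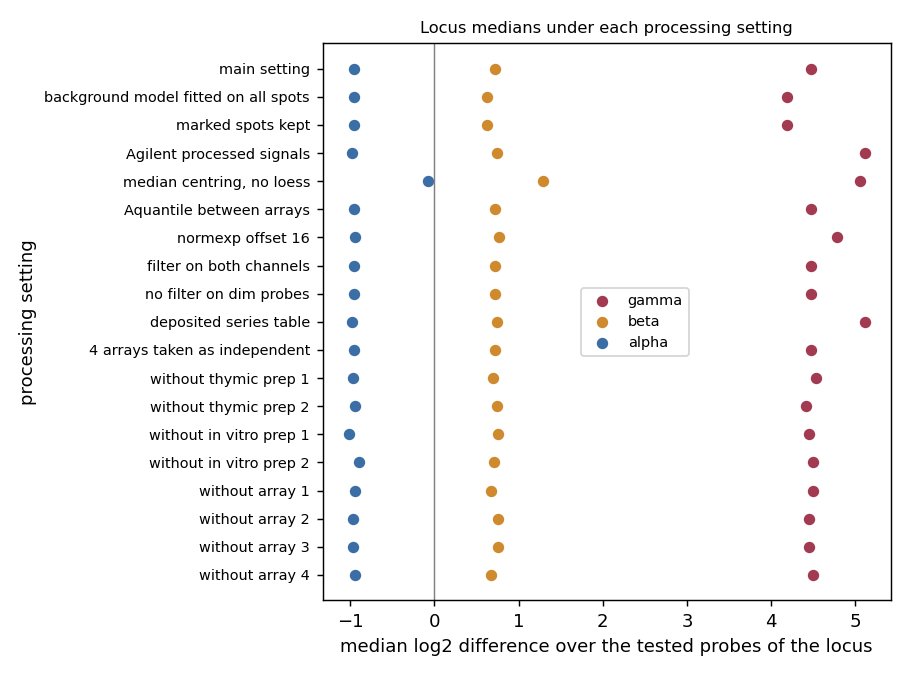
Median log2 difference (in vitro-derived minus thymic) of the tested gamma (red), beta (orange) and alpha (blue) probes under the setting used and 18 alternatives that give locus medians. Gamma runs from 4.18 to 5.11, beta from 0.62 to 1.29 and alpha from -1.02 to -0.071, and the 3 loci keep their order.

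On the mean over the preps of the other channel, preps of 1 kind differed little in these transcripts. This is a measure that the choice of the family did not use. Thymic prep 2 minus prep 1 lay between -0.12 and 0.085 for the 15 tested probes, where 95% of all tested probes lay within 0.21 of 0. In vitro prep 2 minus prep 1 lay between -0.24 and 0.31, where 95% lay within 0.39. The widest in vitro gap was that of Tcrg-C, 0.45 against thymic prep 1 and 0.16 against thymic prep 2. The largest mean fall was that of the U07661 probe at 41478129 (-0.24), which was lower in prep 2 against both thymic preps (-0.27 and -0.21). For Tcrg-V2 the gaps changed sign with the prep on the other channel and partly cancelled in the means. Its thymic gap was -0.41 against in vitro prep 1 and 0.18 against in vitro prep 2. Its in vitro gap was 0.19 against thymic prep 1 and -0.39 against thymic prep 2. The third U07661 probe, with no value on array 4, was lower in in vitro prep 2 by 0.42 against thymic prep 1. No test was made of these gaps, as they rest on 1 residual degree of freedom.

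A further 21 probes are not named for the receptor but belong to its loci by their description or by the reference symbols, and 20 of them were tested. The only gamma probe among them, AK050604, described as a gamma chain variable region, rose by 2.00 ± 0.063 (limma adjusted p = 3.9e-05), less than each of the 5 gamma members, and lay at 3.34 with processed signals. Of 4 beta probes 3 rose, among them the variable region probes ENSMUST00000036189 (1.47 ± 0.061, adjusted p = 7.5e-05) and ENSMUST00000031919 (0.88 ± 0.079) and ENSMUST00000049335 (0.59 ± 0.072). The joining region probe AK018014 lay at -0.072 ± 0.125 (limma adjusted p = 0.67), and was called higher with median centring (0.35, adjusted p = 0.045). LOC665500, described as similar to the constant region of beta chain 1, lacked a value on array 1 and lay at 1.36, 1.71 and 1.45 on the other 3.

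Of 12 alpha probes on chromosome 14, 10 fell and 1 rose in the limma fit, with a median of -1.06, where 25.6% of all tested probes fell and 26.6% rose. The lowest were LOC674460 (-1.57 ± 0.060, adjusted p = 6.0e-05), AK077765 (-1.56 ± 0.061) and ENSMUST00000075784 (-1.34 ± 0.061), described as variable regions or precursors of the alpha chain. D12895 (-1.10 ± 0.065), Trav7d-6 (-1.09 ± 0.089), ENSMUST00000073585 (-1.08 ± 0.096), AF012177 (-0.76 ± 0.077) and LOC236118 (-0.47 ± 0.082) fell as well. With processed signals D12895, well above background in in vitro-derived cells on 3 of 4 arrays, lay at -2.54 and LOC236118 at -1.06. A430107P09Rik, listed as Trav3-3, fell on both of its probes (-1.04 ± 0.062 and -0.39 ± 0.068, the second turning to 0.076 with median centring). ENSMUST00000089706 rose by 0.44 ± 0.065 (adjusted p = 0.0037), or 1.36-fold, and was not well above background in thymic cells on any array. On the log2 scale it lay at 1.77 with processed signals and at 0.287 with median centring. Trav13-5 was not called (0.068 ± 0.073, or 0.29 and called with median centring). LOC236118 and the second A430107P09Rik probe were not called without thymic prep 2 (-0.43 and -0.34), and neither was ENSMUST00000089706 (0.44).

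The delta locus was represented by 2 probes described as delta chain variable regions, and both fell. LOC667547 lay at -0.73 ± 0.083 (limma adjusted p = 0.0015) and was well above background in in vitro-derived cells on 1 of 4 arrays. It lay at -2.56 with processed signals and was not tested with a filter on both channels. ENSMUST00000100591 lay at -0.47 ± 0.094 (adjusted p = 0.011), a call lost without thymic prep 1 (-0.48) or thymic prep 2 (-0.46), and it turned to 0.046 with median centring. Variable segments of alpha and delta are interspersed and some serve both chains, so these probes need not read delta chains alone. No probe for a delta constant part was found by these rules.

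**Figure D4:**
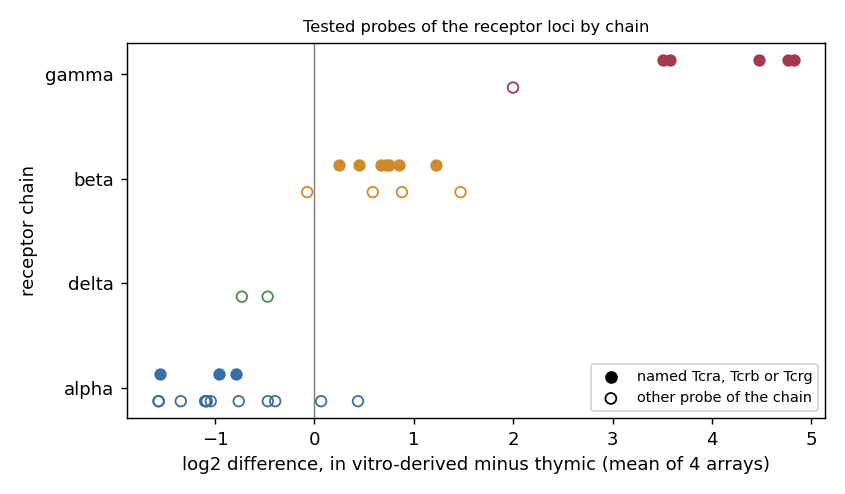
Mean log2 difference (in vitro-derived minus thymic) of each tested probe by receptor chain, filled for the 15 probes named Tcra, Tcrb or Tcrg and open for 19 other probes of the loci. All 6 gamma probes lie at 2.00 or above, 10 of 11 beta probes lie above 0, and 13 of 15 alpha probes and both delta probes lie below 0.

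Genes whose products carry or build the receptor were read on the probe of highest mean intensity. Other tested probes of a gene could differ in size, as for Cd8b1 (other probe -0.20) and Il7r (others -0.07 and -0.75). They could also differ in sign, as for Thy1 (1.00, other probe -0.23) and Hmgb1 (1.47, others 1.07, 1.00 and -0.03). The lists were chosen with earlier results of these data known. Of 8 genes of the receptor complex and coreceptors 1 rose and 4 fell, with a median of -0.26, where 26.6% of all tested probes rose and 25.6% fell. Ptcra, whose product stands in for alpha in the early receptor, rose by 3.24 ± 0.076 (limma adjusted p = 2.2e-05). Cd8a (-0.76 ± 0.10, adjusted p = 0.0028), Cd8b1 (-0.95 ± 0.21, adjusted p = 0.015), Cd3g (-0.70 ± 0.068) and Cd3e (-0.42 ± 0.065) fell. With median centring Cd8a (0.42), Cd3g (0.45) and Cd3e (0.26) were instead called higher, and Cd8b1 turned to 0.38 and was not called. The call of Cd3e was lost when thymic prep 1 was left out (-0.40), and Cd8b1 lay at -0.63 without in vitro prep 2. Cd3d (0.017 ± 0.068, or 1.26 and called with median centring) and Cd247, the zeta chain gene (-0.10 ± 0.067, or 0.80 and called higher with median centring, and called lower with the 4 arrays taken as independent), did not pass the threshold, and the 4 probes of Cd247 differed in sign.

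Of 11 tested genes of segment recombination and end joining 8 rose and 2 fell, with a median of 1.47. Dntt, which adds nucleotides at the joints, rose by 6.05 ± 0.19 (limma adjusted p = 3.9e-05), Rag1, a subunit of the recombinase, by 4.23 ± 0.12 (adjusted p = 3.1e-05), Lig4, the joining ligase, by 3.20 ± 0.061 and Xrcc6, a subunit of the Ku end-binding dimer, by 2.58 ± 0.058. Xrcc5, the other subunit of that dimer, fell (-0.35 ± 0.072, adjusted p = 0.011), and so did Prkdc, the kinase that Ku recruits (-0.67 ± 0.065). Rag2, the partner of Rag1, was not tested, as its probe was above background on 0 arrays in thymic and on 3 in in vitro-derived cells. Of 11 tested transcription factors that act at these loci 8 rose and 1 fell (median 0.54), with Myb (3.56 ± 0.068), Gata3 (2.20 ± 0.080), E2f2 (1.99 ± 0.076) and Tcf12 (1.92 ± 0.078) at the top. Other tested probes of Myb lay at 3.59, 2.53 and 1.48, and those of Tcf12 between 0.95 and 1.97. Tcf3 (0.54, the value at the median) and Ets1 (0.25) rose on the probe read, but their other probes differed in sign. Those lay at -0.15, 0.49 and -0.13 for Tcf3 and at 0.08, 0.09 and -0.39 for Ets1. Runx3 fell (-0.87 ± 0.068), with its other probe at -0.29. Across all tested probes 26.6% rose and 25.6% fell.

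Genes of the gamma-delta lineage were set beside the gamma transcripts. Both kinds were sorted for a high surface level of receptor beta, and whether gamma-delta cells remained was not tested. Of 10 tested genes 6 rose and 2 fell, with a median of 0.54, where 26.6% of all tested probes rose and 25.6% fell. Of those that rose, Blk, Sox13 and Etv5 entered the test only through their Cy5 signal in in vitro-derived cells. Nothing is therefore read from this count. Blk, a Src family kinase gene, rose by 1.38 ± 0.13 (limma adjusted p = 0.00086) and Sox13, a factor of early gamma-delta cells, by 1.15 ± 0.067 (adjusted p = 0.00018), and both were well above background in thymic cells on 1 of 4 arrays. With Agilent's processed signals Blk lay at 2.99 and Sox13 at 2.74, and a filter on both channels left neither tested. Etv5, a factor gene of the same lineage, rose by 0.82 ± 0.10 (adjusted p = 0.0019), or 1.77-fold, and lay at 2.36 with processed signals. It was not above background in thymic cells, and its other tested probe lay at 0.40. Its call was lost with the background model fitted on all spots (0.65). Il7r, the gene of an interleukin 7 receptor chain, fell by 0.98 on the log2 scale (SE 0.12), and lay at -0.23 and was not called with median centring. Of the 7 markers listed for gamma-delta T cells, 6 were on the array and 3 were tested. Blk and Sox13 rose and Ccr6 fell (-0.42 ± 0.058, not called without thymic prep 1, -0.42, or prep 2, -0.42).

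The summed linear level of the 5 gamma-delta markers with a value in every prep was 528.5 and 531.4 in thymic preps and 815.7 and 731.5 in in vitro preps. The receptor gene Il23r and the cytokine gene Il17a, both of the interleukin 17 producing subset, stayed under the well-above-background mark of the scanner on all 4 arrays in both kinds, while the related cytokine gene Il17f of the lineage list rose by 0.75 ± 0.088. The sixth marker on the array, the scavenger receptor gene Scart1, named E430002D04Rik in the files, was not tested because its background was marked on 2 arrays. It lay at 5.64 and 5.59 on arrays 2 and 4, and with marked spots kept at 5.71 ± 0.099, or 52.3-fold higher (limma adjusted p = 0.00014). Its log2 level in in vitro prep 2, the only prep with one, was 16.32, and the sum above leaves it out. The 5 summed markers stood at 8.25 or lower in every prep, so that sum does not describe the brightest marker of the list. Scart1 is singled out after its values were seen. The part of gamma-delta cells in the gamma locus ratios was not tested.

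Markers of other cells moved in the same comparison. All 9 T cell markers were well above background in both kinds on all arrays. Summed linear levels of double-positive thymocyte markers were 14370 and 15120 in thymic and 224300 and 189400 in in vitro preps, with 3 of 5 tested members called higher and 0 lower. Most of the in vitro sums is Dntt, at log2 levels of 17.54 and 17.32 there. Cd4 (0.15 ± 0.066) and Cd1d1 (0.225 ± 0.16) were not called. Summed levels of stromal markers were 994 and 947 against 9248 and 11500, with 4 of 5 higher and Dcn not above background in in vitro-derived cells. Vcam1 was not called (-0.079 ± 0.065, or -0.32 and called lower with processed signals or median centring). The other tested probe of Col1a1 lay at 1.22 and that of Col3a1 at 0.08. Summed levels of NK cell markers were 13970 and 14650 against 1653 and 3589, with Ncr1 and Klrk1 not above background in either kind. Of the 2 tested NK cell markers Klrd1 fell (-2.74 ± 0.40), and Klrb1c was not called (0.34 ± 0.29), so the lower sum is that of Klrd1. B cell sums were 3602 and 3608 against 3307 and 2942, and of 6 tested members Blnk rose (1.24 ± 0.090), Cd79b fell (-0.43 ± 0.076) and 4 were not called. Myeloid sums were 1190 and 1224 against 1093 and 1080, and of 5 tested members Itgam (0.64 ± 0.12, not above background in thymic cells) and Mpo (0.48 ± 0.10) rose and Lyz2 (-1.53 ± 0.22) and Csf1r (-0.44 ± 0.088) fell. Their part in the receptor locus ratios was not tested.

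The probes most like the receptor probes were found by the smallest root mean square difference of the 4 array log ratios, over 4 arrays that share preps. For Tcrg (first X00697 probe) they were Pdgfrb, a growth factor receptor gene also among the stromal markers (root mean square difference 0.15), Endou (0.16) and Rapgef3 (0.18). For Tcrg-C they were Pdgfrb (0.17), Pdlim4 (0.27) and Endou (0.33), and for Tcrg-V2 Mcoln2 (0.13), A930003A15Rik (0.14) and the inhibitory receptor gene Ctla4 (0.14). For Tcra (AK037357) they were the class I heavy chain gene H2-K1 (0.024), Rapgef6 (0.033) and Hcn3 (0.039). For Tcrb-V13 they were Ppp1r14b (0.025), Glcci1 (0.035) and Dhx34 (0.045), and for Tcrb-J Dync2h1 (0.025), Ahcyl2 (0.030) and Elp6 (0.030). The nearest probes of the gamma names lay farther off, at 0.13 or more, than those of the alpha and beta names, at 0.045 or less. These gamma probes ranked at 11, 12 and 54 from the top, where few probes have such ratios. The distances are therefore not read as a pattern of the locus.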

How the data were processed

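The authors deposited 1 scanner file per array with intensity values (mean signal and median local background per channel, and processed signals), from scanner software that, per the file headers, was Agilent Feature Extraction 9.5.1.1. A series table that the authors also deposited gives Cy5 relative to Cy3 as a log10 ratio. Here log2 ratios were computed with limma 3.58.1 in R 4.3.3 from intensity minus background, corrected by normexp (offset 50) after leaving out the spots marked by the scanner software, then by loess with control spots at weight 0. The arrays shared 1 slide and 1 scan, so neither forms a batch. Over 43379 spots without controls, the share well above background per array was 63.7% to 65.6% for Cy3 and 66.5% to 70.9% for Cy5.

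Spots of a probe were averaged, and a probe was tested if 1 channel or both stood well above background on each of the 4 arrays and no array lacked a value (27236 of 41174). The 4 ratios were turned into 2 thymic and 2 in vitro prep values, which have the mean ratio as their difference, and fitted with limma's lmFit and eBayes, where 2 residual degrees of freedom were joined by 3.19 of the prior. The method was tested on simulated data. Probes with a Benjamini-Hochberg adjusted p under 0.05 over all tested probes are called, and "rose" and "fell" are used of these. Errors are standard errors of this fit. Levels are channel values after loess and Aquantile.

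The members and lists were chosen with earlier results of these data known. Named are every member, every tested further probe of the loci, the list genes of largest difference with the CD3 chains, Ptcra and the recombinase genes, and the 3 nearest probes of each member name. List genes were matched through RefSeq accessions and symbols of GRCm38.p6 (32719 probes matched). 1 gene of the lineage and marker lists is not reported here and was left out of their counts, medians and sums. Alternatives were the background model, Agilent's processed signals, median centring, Aquantile, an offset of 16, other filters, 1 probe per gene, the deposited table, arrays as independent, and leaving out preps or arrays.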

Additional observations from a re-analysis of the deposited data

How the results depend on the processing

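Counts of called members kept within 1.5 times of 12 higher and 3 lower, except for 1 lower with median centring, and 5 higher and 1 lower with 1 probe per gene name, where only 6 names are counted. The gamma locus log2 difference (median over probes) of 4.47 moved to 4.18 with the background model fitted on all spots or with marked spots kept, to 5.11 with Agilent's processed signals or the deposited table, to 5.05 with median centring and to 4.78 with an offset of 16. The beta locus log2 difference of 0.73 moved to 0.62 in the first pair of settings, to 1.29 with median centring and to 0.76 with an offset of 16, and ranged from 0.67 to 0.76 when 1 prep or array was left out. The alpha locus log2 difference moved to -0.071 with median centring. An array left out was filled from the other 3 by the additive model of preps.

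With median centring these turned and were not called: the U07662 probe of Tcra (0.12), the second A430107P09Rik probe (0.076), ENSMUST00000100591 (0.046) and Cd8b1 (0.38). These turned and were then called higher: AK018014 (0.35), Cd3e (0.26), Cd3g (0.45), Cd247 (0.80) and Cd8a (0.42). Cd3d turned to -0.029 with processed signals and the deposited table. On leaving out 1 prep or array, Cd3d ranged from -0.042 to 0.075, AK018014 from -0.24 to 0.094 and Trav13-5 from -0.005 to 0.14. The number of all probes called fell from 14223 to 8713 without thymic prep 1 and to 8124 without thymic prep 2, where the spread rests on the in vitro preps alone. The cause was not tested. No paired analysis was possible because the prep numbers of the 2 kinds name no shared animal or day, and every thymic prep met both in vitro preps.

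The number of preps limits the precision. Tcrg-V2 is limited by its low thymic signal, and bright spots marked for their background (Scart1, U07661, LOC665500) drop out of the fit.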

Other observations

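AK018014, described as a beta joining region cDNA, was the tested receptor locus probe whose thymic preps differed most on the mean over the in vitro preps (0.33). On the log2 scale, prep 2 exceeded prep 1 by 0.34 against in vitro prep 1 and by 0.32 against in vitro prep 2. On that mean, 95% of all tested probes lay within 0.21. The log2 ratios of AK018014 were 0.17 and 0.021 on the arrays of thymic prep 1 and -0.17 and -0.30 on those of thymic prep 2. Leaving out thymic prep 2 turned its difference to 0.094.

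Brcc3 was read by a probe for a hypothalamus cDNA that its description calls a receptor alpha chain, but the files place it on chromosome X. It lay at -0.035 ± 0.058 (limma adjusted p = 0.66), apart from the alpha probes on chromosome 14.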
